A study of Mus musculus with 74 samples.

Results

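The genes described here are 8 genes of fasting and glucose metabolism, Pck1, Fbp1, Pcx, Tat, Igfbp1, Pklr, Irs2 and Fgf21, and they are followed mainly in mouse liver. They were picked by symbol for their roles in this pathway, with earlier results of these data known, and are 8 of the 18193 genes that the array measured with a probe set of 1 gene symbol. They are covered by 12 of the 34945 such probe sets, 3 for Pck1, 3 for Pklr and 1 for each of the others. Each gene is represented by its probe set of highest mean intensity over all 74 arrays. The study dosed male B6C3F1 mice daily with fenretinide, troglitazone or Elmiron at roughly double the highest dose of earlier carcinogenicity studies, and sampled tissues in which hemangiosarcomas, tumours of blood vessel cells, arise. Troglitazone, an agonist of the nuclear receptor PPARgamma, was given by the oral route at 1200 mg/kg, and Elmiron, pentosan polysulfate, by the same route at 1000 mg/kg. Fenretinide, a synthetic retinoid, was given in the diet at 500 mg/kg.

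Liver was profiled in 8 groups of 5 mice. The troglitazone study has vehicle and troglitazone livers on days 15 and 29, and the Elmiron study has vehicle and Elmiron livers on the same days. Brown fat came from the troglitazone study (4 groups of 5) and white fat from the fenretinide study (groups of 3 on day 15 and of 4 on day 29), and both serve here as reference tissues. All mice were of one strain with no engineered allele named, and the age, the feeding state and the hour of sampling were not given in the sources used here. Each compound was tested in its own study against its own vehicle mice, so compound and study cannot be told apart. The numbers in the labels mark separate mice, so the spread within a group is a spread between animals.

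During fasting the liver makes glucose. Pyruvate carboxylase, encoded by Pcx, turns pyruvate into oxaloacetate in mitochondria, phosphoenolpyruvate carboxykinase (Pck1) carries it on towards glucose, and fructose-1,6-bisphosphatase (Fbp1) removes a phosphate further along the same route. Tyrosine aminotransferase (Tat) opens the breakdown of tyrosine and is a classical target of glucocorticoids and glucagon in liver. Liver pyruvate kinase (Pklr) works in the opposite direction, at the end of glycolysis, and is induced by glucose. Irs2 is an adaptor beneath the insulin receptor. Igfbp1, a secreted protein that binds insulin-like growth factors, is repressed by insulin, and Fgf21 is a hormone that liver releases in fasting under PPARalpha and in several kinds of nutrient stress.

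The promoter sequences of Pck1, Tat and Igfbp1 are shown because the first 2 of these genes had the strongest relation between members in these livers and Igfbp1 varied most between mice. Each run holds the 250 bases before a transcript start given by RefSeq on build GRCm38.p6, written 5′ to 3′ in the direction of the gene, all 3 on the plus strand. The runs of Pck1 and Igfbp1 end at the outer edge of the gene, while that of Tat lies inside the gene's full annotated span, before a start downstream of its outer edge. Capitals mark letters found by a search for 8 motifs on both strands, in a motif list written after the values were seen. In Pck1 they mark TGACG, the core of a cAMP response element, read on the opposite strand at positions -90 to -86 from the start. In Tat they mark 3 CCAAT boxes, at -168 to -164 and -40 to -36 on the opposite strand and at -72 to -68 on the gene's own strand. In Igfbp1 they mark CAAAACA, the core of the known insulin response element, at -108 to -102.
Pck1, chr2:173152823-173153072: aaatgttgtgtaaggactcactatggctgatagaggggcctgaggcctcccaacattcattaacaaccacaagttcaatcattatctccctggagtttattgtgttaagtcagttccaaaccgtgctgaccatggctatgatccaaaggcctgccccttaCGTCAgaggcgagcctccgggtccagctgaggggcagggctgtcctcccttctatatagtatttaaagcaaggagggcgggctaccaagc
Tat, chr8:109990186-109990435: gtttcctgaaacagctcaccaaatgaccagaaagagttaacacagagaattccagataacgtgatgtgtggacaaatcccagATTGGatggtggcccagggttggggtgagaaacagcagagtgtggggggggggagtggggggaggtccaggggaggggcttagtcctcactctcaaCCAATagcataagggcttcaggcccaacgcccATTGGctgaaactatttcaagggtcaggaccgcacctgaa
Igfbp1, chr11:7197537-7197786: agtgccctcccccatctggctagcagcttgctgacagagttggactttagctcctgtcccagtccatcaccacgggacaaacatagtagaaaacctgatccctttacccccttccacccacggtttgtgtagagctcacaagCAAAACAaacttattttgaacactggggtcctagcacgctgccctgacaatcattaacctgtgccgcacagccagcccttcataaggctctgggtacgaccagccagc
TGACG was present in 17.8% of the 32851 promoter windows searched, CCAAT in 33.8% and CAAAACA in 5.56%. The other motifs searched were TGACGTCA (1.55% of windows), which contains TGACG, the forkhead core GTAAACA (3.17%), the E-box CACGTG (6.02%), the nuclear receptor element AGGTCA (14%) and the glucocorticoid receptor element AGAACA (16.1%). None of these 5 was found in the 3 windows shown, which says only that those letters are not there. The genes themselves lie on the same build at chr2:173153073-173159274 (Pck1), chr8:109986078-109999804 (Tat), chr11:7197787-7202546 (Igfbp1), chr13:62864753-62888298 (Fbp1), chr19:4510472-4621752 (Pcx), chr3:89136122-89146815 (Pklr), chr8:10984681-11008929 (Irs2) and chr7:45613890-45615490 (Fgf21).

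Array medians ran from 112 to 123 in deposited intensity. RMA had normalized that intensity, so close medians do not by themselves show comparable arrays. Values below are log2 of that intensity, and a difference of 1 is a doubling. Replicate livers correlated with a Pearson r of 0.9797 to 0.9958 over all genes, and no pair of liver arrays was identical. The troglitazone study's vehicle liver of mouse 88 on day 29 stood lowest, with a median r to its group of 0.9798 against 0.9877 for the next. The hepatocyte marker list (12 of 14 genes measured, Alb and Apoa1 among them) averaged between 14.55 and 14.73 in every liver, which matches the labelled tissue. In whole tissue, fewer cells of a type and less RNA per cell cannot be told apart. Members were called changed where limma gave an adjusted p below 0.05, adjusted by Benjamini-Hochberg over all 18193 genes.

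No member passed that threshold in any of the 18 comparisons made, so none of the 8 genes is called changed by any compound, day or study. By limma's adjusted p the nearest was Irs2 in white fat under fenretinide on day 29 (0.78 ± 0.24, SE, adjusted p 0.141), followed by Pck1 in the Elmiron study's vehicle livers, higher on average on day 29 than on day 15 (0.45 ± 0.11, adjusted p 0.277). Among the comparisons of treated with vehicle livers the nearest was Fgf21 under troglitazone on day 29 (-0.72 ± 0.22, adjusted p 0.333). The pattern that did pass a test lay between individual mice: Pck1 and Tat varied together across the 40 livers. No pair with Igfbp1 passed that test. The range of Igfbp1 within a group of 5 livers, up to 2.74 log2 units, is given without a test.

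The members differed widely in how far they varied between mice of one group. Igfbp1 had a pooled within-group SD of 0.772, above 99.8% of all genes. Fgf21 followed with 0.417, at the 98.3rd percentile. The median gene had an SD of 0.186. Tat (0.252), Pck1 (0.245), Pklr (0.234) and Irs2 (0.230) lay above that median, and Pcx (0.181) lay near it. Fbp1, with an SD of 0.0622, varied less than all but 0.429% of genes and stayed between 13.99 and 14.25 in all 40 livers, a 1.19-fold range. Its liver mean of 14.13 lay at the 99.5th percentile of level among all genes. The part of that high level in its small SD was not tested. Between the highest and the lowest liver array the intensity differed 8.73-fold for Igfbp1, 4.08-fold for Fgf21 and between 1.79-fold and 2.27-fold for the other members apart from Fbp1. These ranges run over all groups and both studies. The SDs and ranges are those of the representative probe sets and depend on that choice. Pck1 ran from 12.5 to 13.7 on its representative and from 11.3 to 13.1 on its other bright probe set. Pklr ran from 9.4 to 10.6 on its representative and from 9.5 to 11.1 on each of the others. Intensities of different probe sets do not give an order of transcript abundance, so levels are compared within a gene.

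**Figure D1:**
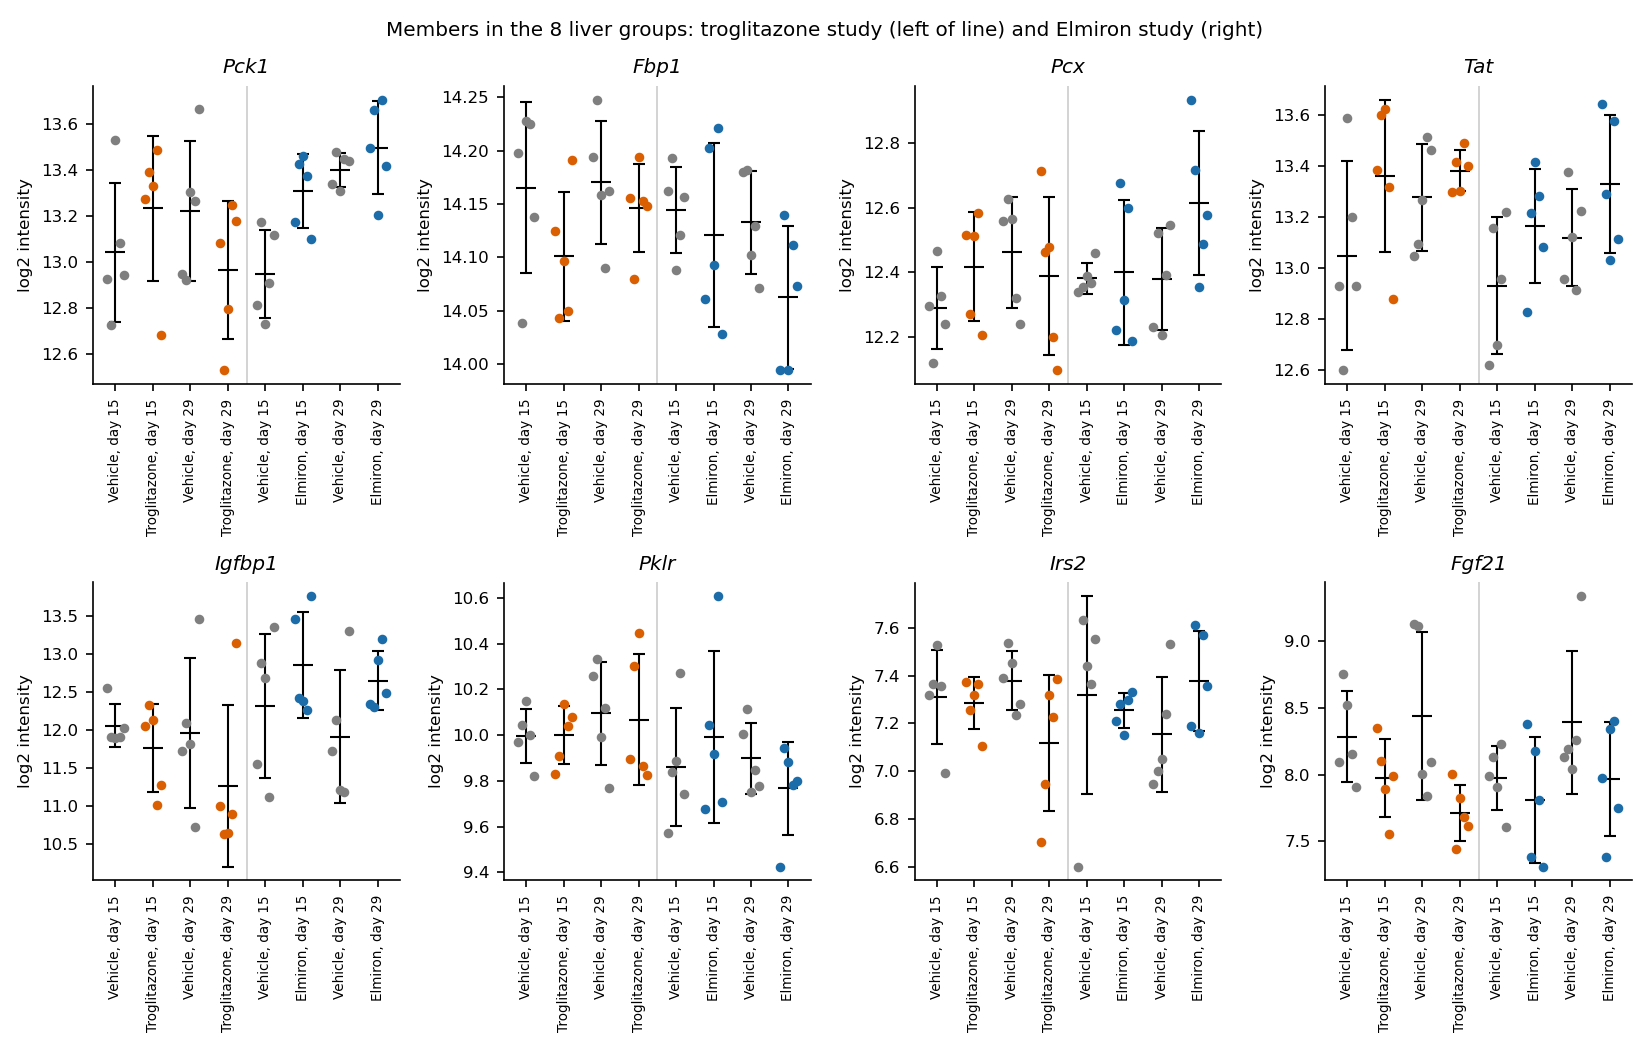
Log2 intensity of each of the 8 genes (y axis, a scale of its own in every panel) in the 8 liver groups (x axis), with 1 point per mouse and the mean ± SD of 5 mice in black. Grey is vehicle, orange troglitazone and blue Elmiron. Treated mice overlap the vehicle mice of their own study and day for every gene, the Elmiron study's day 29 vehicle mice lie above its day 15 vehicle mice in Pck1, Igfbp1 spans 10.63 to 13.76, and Fbp1 spans 13.99 to 14.25.

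Igfbp1, the insulin-repressed binding protein, had its highest group mean in Elmiron livers on day 15 (12.85 ± 0.70, SD, n = 5) and its lowest in troglitazone livers on day 29 (11.27 ± 1.06). Between them came Elmiron day 29 (12.65 ± 0.39), the Elmiron study's day 15 vehicle (12.32 ± 0.94), the troglitazone study's vehicles of day 15 (12.06 ± 0.28) and day 29 (11.96 ± 0.98), the Elmiron study's day 29 vehicle (11.91 ± 0.87) and troglitazone day 15 (11.76 ± 0.58). For Pck1 the order ran from Elmiron day 29 (13.50 ± 0.20) down to the Elmiron study's day 15 vehicle (12.95 ± 0.19). Tat was highest in troglitazone livers on day 29 (13.38 ± 0.08) and lowest in that same day 15 vehicle group (12.93 ± 0.27). For Fgf21 and for Irs2 the extremes were the vehicle and the troglitazone groups of day 29 in the troglitazone study, with 8.44 ± 0.63 against 7.71 ± 0.21 for Fgf21 and 7.38 ± 0.12 against 7.12 ± 0.28 for Irs2. Pcx, Fbp1 and Pklr each had an extreme in the Elmiron day 29 group, at 12.61 ± 0.22 (highest), 14.06 ± 0.07 (lowest) and 9.77 ± 0.20 (lowest). For all 8 genes, each of the 7 gaps between neighbouring group means was smaller than the larger SD of the neighbouring groups. Sorting 8 means makes such gaps small in any case, so this says nothing of groups further apart. From the highest to the lowest group the means spanned 1.59 for Igfbp1 and 0.55 for Pck1. The orders as such were not tested.

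Troglitazone livers were compared with vehicle livers first. After 15 days 0 of 8 members were called, where limma called 4 genes (0.022% of all genes). After 29 days 0 of 8 were called, against 21 genes (0.115%). At an unadjusted p below 0.05 there were 782 genes and 0 members on day 15, and 1859 genes and 2 members (Irs2 and Fgf21) on day 29. The median absolute change of the members was 0.16 on day 15 and 0.18 on day 29, beside 0.08 and 0.10 over all genes. With no compound, between the days in this study's vehicle livers, the members' median was 0.12 beside 0.09.

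Fgf21, the fasting hormone, was 9.12, 9.11, 8.01, 7.84 and 8.09 in the day 29 vehicle livers. In the troglitazone livers of that day it was 8.002, 7.44, 7.82, 7.68 and 7.61. Vehicle mice 83 and 85 stood about a log2 unit above all other livers of that study and day, while the other vehicle mice overlapped the treated ones. The difference was -0.72 (SE 0.22, 95% interval -1.18 to -0.26), a ratio of 0.606, with an adjusted p of 0.333. On day 15 the values were 8.09, 8.75, 8.52, 8.15 and 7.91 in vehicle and 8.35, 8.10, 7.89, 7.55 and 7.99 in troglitazone livers. That difference was -0.31 (SE 0.22, adjusted p 0.957), and the groups overlapped. With array weights the day 29 difference became -0.95 and passed the threshold (adjusted p 0.0415).

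Irs2, the insulin receptor adaptor, was 7.39, 7.54, 7.45, 7.23 and 7.28 in vehicle livers on day 29 and 6.71, 6.95, 7.32, 7.23 and 7.38 in troglitazone livers. Mice 92 and 93 lay below the vehicle range, mouse 95 at its lower edge and the other 2 within it. The difference was -0.26 (SE 0.12, 95% interval -0.51 to -0.02, adjusted p 0.465), against -0.03 on day 15. With 1 array left out at a time the day 29 difference lay between -0.33 and -0.16. The only Irs2 probe set averaged 7.27 in liver, at the 41.5th percentile of level among all genes.

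Igfbp1 on day 29 was 11.72, 12.10, 11.82, 10.72 and 13.46 in vehicle livers. Under troglitazone it was 11.01, 10.63, 10.65, 10.90 and 13.14. In each group 1 mouse (88 and 96) was more than a log2 unit above the rest, so the difference of -0.70 (SE 0.43, 95% interval -1.59 to 0.19, adjusted p 0.593) was smaller than the SD of either group. Leaving out 1 array at a time moved it between -1.17 and -0.32. On day 15 the difference was -0.29 (SE 0.43, adjusted p 0.963).

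For the enzymes of glucose production no difference under troglitazone passed the test. On day 29 the mean differences of Pck1, Pcx and Fbp1 were below 0, but those of Pcx and Fbp1 by less than their SE (0.11 and 0.07). Pck1 was 12.93, 12.72, 13.53, 13.08 and 12.94 in vehicle and 13.27, 13.39, 13.33, 13.48 and 12.68 in troglitazone livers on day 15, a difference of 0.19 (SE 0.17, adjusted p 0.957). On day 29 it was 12.95, 12.92, 13.30, 13.26 and 13.66 in vehicle and 13.08, 12.53, 12.79, 13.25 and 13.18 in troglitazone livers, a difference of -0.25 (SE 0.17, adjusted p 0.637). In 4 of the day 15 treated mice Pck1 lay above 4 of the 5 vehicle mice, and on day 29 the groups overlapped in part, with 3 vehicle mice above all treated mice and 2 treated mice below all vehicle mice. Tat differed by 0.31 on day 15 (SE 0.15, 95% interval 0.00 to 0.63, adjusted p 0.957) and by 0.10 on day 29. Pcx differed by 0.13 and -0.07, Fbp1 by -0.06 and -0.02, and the glycolytic Pklr by 0.00 and -0.03. The groups of no member were free of overlap on either day, where 2.09% of all genes had groups that did not overlap on day 15 and 1.07% on day 29.

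Elmiron livers were compared with the vehicle livers of their own study in the same way. After 15 days 0 of 8 members were called and limma called 0% of all genes, with 997 genes and 1 member (Pck1) at an unadjusted p below 0.05. After 29 days 0 of 8 were called against 1 gene (0.0055%), with 1510 genes and 1 member (Pcx) at an unadjusted p below 0.05. The members' median absolute change was 0.15 and 0.22, beside 0.08 and 0.10 over all genes. With no compound, between the days in this study's vehicle livers, the members' median was 0.18 beside 0.08. For no member were the groups free of overlap, where they were for 1.06% of all genes on day 15 and 1.43% on day 29.

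Pck1 on day 15 was 12.81, 13.17, 12.73, 12.91 and 13.12 in vehicle and 13.17, 13.43, 13.46, 13.37 and 13.10 in Elmiron livers. Of the treated mice 3 were above the vehicle range and mice 51 and 55 were at its top. The difference was 0.36 (SE 0.11, 95% interval 0.14 to 0.58, unadjusted limma p 0.00268, adjusted p 0.657). A second Pck1 probe set of high level gave 0.69 (SE 0.20, adjusted p 0.398 over all probe sets), and the third, dim in liver with a mean of 5.08, gave 0.08. On day 29 Pck1 was 13.34, 13.47, 13.31, 13.45 and 13.44 in vehicle and 13.50, 13.66, 13.20, 13.71 and 13.42 in Elmiron livers, a difference of 0.10. The day 29 vehicle mice were all above the day 15 vehicle mice of the same study.

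Igfbp1 was higher on average under Elmiron on both days, by 0.54 (SE 0.42, 95% interval -0.33 to 1.40, adjusted p 0.989) and 0.73 (SE 0.42, 95% interval -0.13 to 1.60, adjusted p 0.632). Leaving out 1 array at a time moved these differences between 0.24 and 0.80 on day 15 and between 0.55 and 1.08 on day 29. On day 15 its values were 11.55, 12.88, 12.68, 11.12 and 13.35 in vehicle and 13.45, 12.42, 12.38, 12.26 and 13.76 in Elmiron livers. On day 29 they were 11.73, 12.14, 11.22, 11.19 and 13.30 in vehicle and 12.35, 12.30, 12.92, 13.19 and 12.48 in Elmiron livers. On day 29 all 5 treated mice exceeded 4 of the vehicle mice and lay below vehicle mouse 85, which was the highest of that study and day.

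Pcx, the mitochondrial entry to glucose production, was 12.23, 12.52, 12.21, 12.39 and 12.55 in vehicle livers on day 29 and 12.94, 12.72, 12.35, 12.49 and 12.58 in Elmiron livers. Mice 91 and 92 stood above the vehicle range and the other treated mice within or just above it. The difference was 0.24 (SE 0.11, 95% interval 0.00 to 0.47, adjusted p 0.601), and 0.15 to 0.30 with 1 array left out at a time. Mouse 92 also had the highest adipocyte marker level of all livers (list mean 8.10, Adipoq 8.09), against 6.43 to 6.76 in the other livers of its group. Pcx and Pck1 are both strongly expressed in fat, and the part of that marker level in the result was not tested. The control probe sets of the array that tile Pcx gave 0.47 at the 5′ end, 0.41 and 0.20 in the middle and 0.01 at the 3′ end for Elmiron on day 15, where the gene's own probe set gave 0.02. On that day the Elmiron livers also had the lowest median 3′ minus 5′ difference of Gapdh, 0.115, a measure of RNA integrity whose part in these values was not tested.

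Tat was 0.23 higher under Elmiron on day 15 and 0.21 on day 29, Fgf21 differed by -0.16 and -0.42 (SE 0.24 on day 29, 95% interval -0.93 to 0.08, adjusted p 0.632), and Irs2 by -0.06 and 0.22. Fbp1 differed by -0.02 and -0.07 and Pklr by 0.13 and -0.13. None of these exceeded the spread between mice by the test. Fgf21 on day 29 was 8.13, 8.19, 8.04, 8.26 and 9.34 in vehicle and 7.97, 7.38, 8.34, 8.40 and 7.75 in Elmiron livers. The highest value belonged to vehicle mouse 85, and without any single array the difference lay between -0.53 and -0.19.

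**Figure D2:**
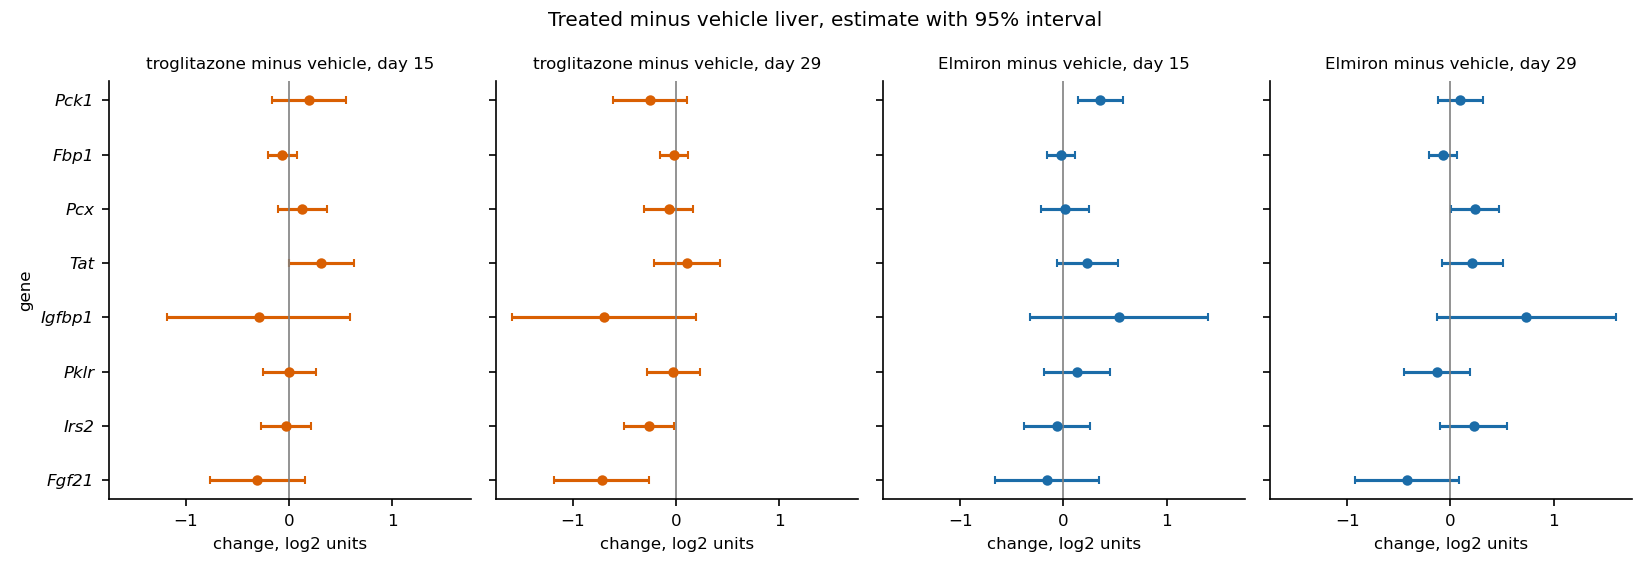
Treated minus vehicle difference in log2 intensity (x axis) for each of the 8 genes (y axis) in the 4 liver comparisons, with 95% intervals from limma over 5 mice a group. The interval of Igfbp1 is the widest in each panel and that of Fbp1 the narrowest. The intervals that leave out 0 are Irs2 and Fgf21 under troglitazone on day 29, Pck1 under Elmiron on day 15 and Pcx under Elmiron on day 29, and none of these passed the adjusted test.

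Whether an effect changed between the days was tested as a difference of differences. For troglitazone 0 of 8 members were called and limma called 0% of all genes, with 1363 genes and 0 members at an unadjusted p below 0.05. For Elmiron 0 of 8 were called and again 0% of all genes, with 981 genes and 0 members unadjusted. The largest shift between days among the members was that of Pck1 under troglitazone, -0.44 (SE 0.25, adjusted p 0.67), from 0.19 on day 15 to -0.25 on day 29. Under Elmiron Pck1 shifted by -0.26 (SE 0.15, adjusted p 0.887) and Irs2 by 0.29 (SE 0.22, adjusted p 0.922).

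The effect of troglitazone was set against that of Elmiron, each relative to the vehicle mice of its own study. On day 15, 0 of 8 members were called against 0.0055% of all genes (1 gene), with 1087 genes and 0 members at an unadjusted p below 0.05. On day 29, 0 of 8 were called against 0.0934% (17 genes), with 2309 genes and 2 members unadjusted. Those members were Igfbp1 and Irs2. The Igfbp1 effects differed by -1.43 (SE 0.64, 95% interval -2.72 to -0.14, adjusted p 0.357), with -0.70 under troglitazone and 0.73 under Elmiron. The Irs2 effects differed by -0.49 (SE 0.20, 95% interval -0.89 to -0.08, adjusted p 0.33), with -0.26 and 0.22. The doses, 1200 and 1000 mg/kg, also differed.

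Vehicle livers show how far these genes moved with no compound. Between days 15 and 29 limma called 0 of 8 members and 0% of all genes in the troglitazone study (1185 genes and 0 members at an unadjusted p below 0.05). It called 0 of 8 and 0% of all genes in the Elmiron study as well (986 genes and 1 member unadjusted). The member was Pck1, higher by 0.45 on day 29 (SE 0.11, 95% interval 0.23 to 0.67, unadjusted limma p 0.00032, adjusted p 0.277), with day 29 values from 13.31 to 13.47 and day 15 values from 12.73 to 13.17. It was the only member whose groups did not overlap between days in that study, where 0.918% of all genes did not; in the troglitazone study no member's groups were free of overlap, against 1.03% of all genes, and Pck1 differed by 0.18. The Elmiron effect on day 15 uses the same low vehicle livers, so these differences in Pck1 share their controls.

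Vehicle livers of the Elmiron study and of the troglitazone study were also compared. On day 15 limma called 0 of 8 members and 0% of all genes, with 565 genes and 0 members at an unadjusted p below 0.05. On day 29 it called 0 of 8 and 0%, with 2073 genes and 0 members unadjusted. No member's groups were free of overlap on day 15 (0.995% of all genes) or day 29 (1.06%). The largest differences among the members were Fgf21 on day 15 (-0.31, SE 0.25) and Irs2 on day 29 (-0.22, SE 0.14), Elmiron study minus troglitazone study.

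Between mice of one group, Pck1 and Tat varied together. After the group means were removed, Pearson's r over the 40 livers was 0.741 and Spearman's rho 0.693, each with a permutation p of 1e-05, two-sided and the smallest that 100000 resamples of mice within groups can give. Adjusted over the 28 pairs of members, both p were 0.00028. The relation was there in each study alone, with r of 0.769 in the troglitazone study and 0.754 in the Elmiron study (20 livers each), and without the 2 livers farthest from the median of Pck1 (0.758). Vehicle livers alone gave 0.845 (permutation p 6e-05) and treated livers alone 0.637 (permutation p 0.00455), a split made after the values were seen. The second Pck1 probe set of high level gave 0.745 with Tat.

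The individual livers show the relation. In the day 15 vehicle group of the troglitazone study, mouse 44 had the highest Pck1 (13.53) and the highest Tat (13.59), and mouse 43 had the lowest of both (12.72 and 12.60). In the troglitazone group of that day mouse 56 was lowest in both (12.68 and 12.88). Among the Elmiron study's day 15 vehicle mice, 41 and 44 were low in both genes (Pck1 12.81 and 12.73, Tat 12.62 and 12.70), and 42 and 47 were high in both (13.17 and 13.12, 13.16 and 13.22). Troglitazone mouse 93 on day 29 was an exception, with the lowest Pck1 of all livers (12.53) beside a Tat of 13.41.

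**Figure D3:**
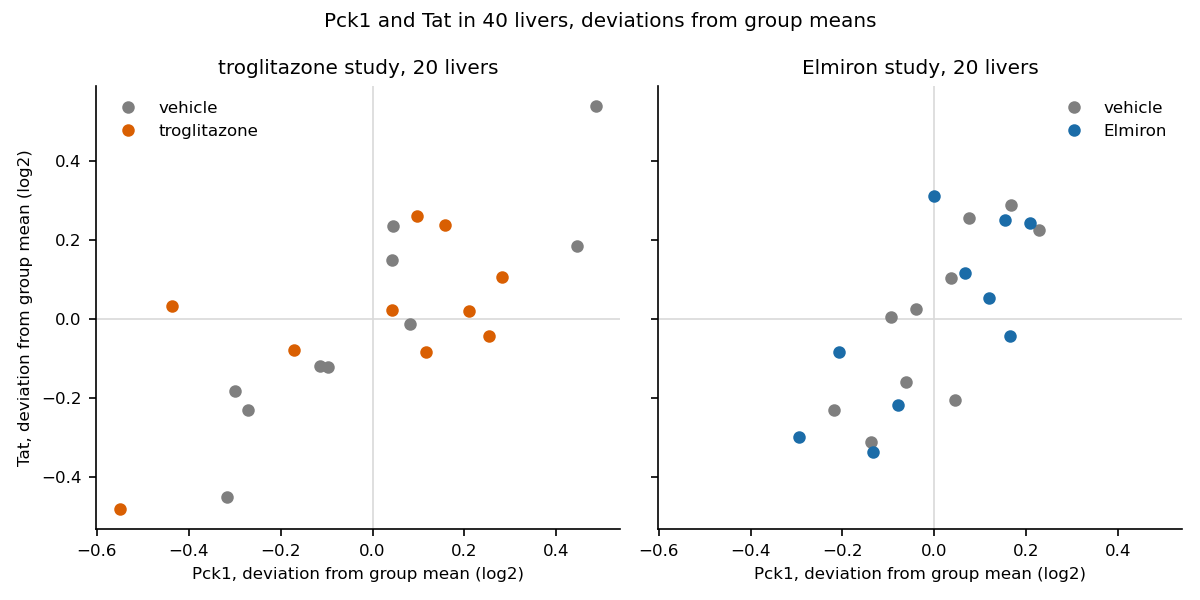
Deviation of Tat (y axis) against deviation of Pck1 (x axis) from the group mean, in log2 units, for the 20 livers of the troglitazone study (left) and the 20 of the Elmiron study (right), 1 point per mouse. Points run from low in both genes to high in both, with r of 0.769 and 0.754, and vehicle (grey) and treated (coloured) mice lie along the same direction.

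Of the 28 pairs of members, 1 (Pck1 with Tat) had an adjusted p below 0.05. The next was Igfbp1 with Pklr, with r of -0.433 and rho of -0.36 (permutation p 0.018 and 0.0428, adjusted p 0.179 and 0.272), and r of -0.254 after quantile normalization. Fbp1 with Pklr had r of 0.407 and rho of 0.403 (permutation p 0.0191 and 0.019, adjusted p 0.179 and 0.266), with r of 0.184 in the troglitazone study and 0.578 in the Elmiron study. Igfbp1 with Irs2 had r of 0.382 and rho of 0.322 (adjusted p 0.285 and 0.272). For the other steps of glucose production r with Pck1 was 0.193 for Fbp1 and 0.157 for Pcx over the 40 livers (permutation test, adjusted p 0.516 and 0.535). It differed between studies, at -0.0419 and -0.0031 in the troglitazone study and 0.642 and 0.479 in the Elmiron study for Fbp1 and Pcx, and the difference between studies was not tested. Of 16 relations of the members with the 3′ minus 5′ differences of Actb and Gapdh, none had an adjusted p below 0.05. Those of Fbp1, Irs2 and Pklr with Actb were the strongest (r -0.481, -0.414 and -0.485, adjusted p 0.0694, 0.0801 and 0.121), and with both differences removed by regression Pck1 and Tat kept an r of 0.741.

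**Figure D4:**
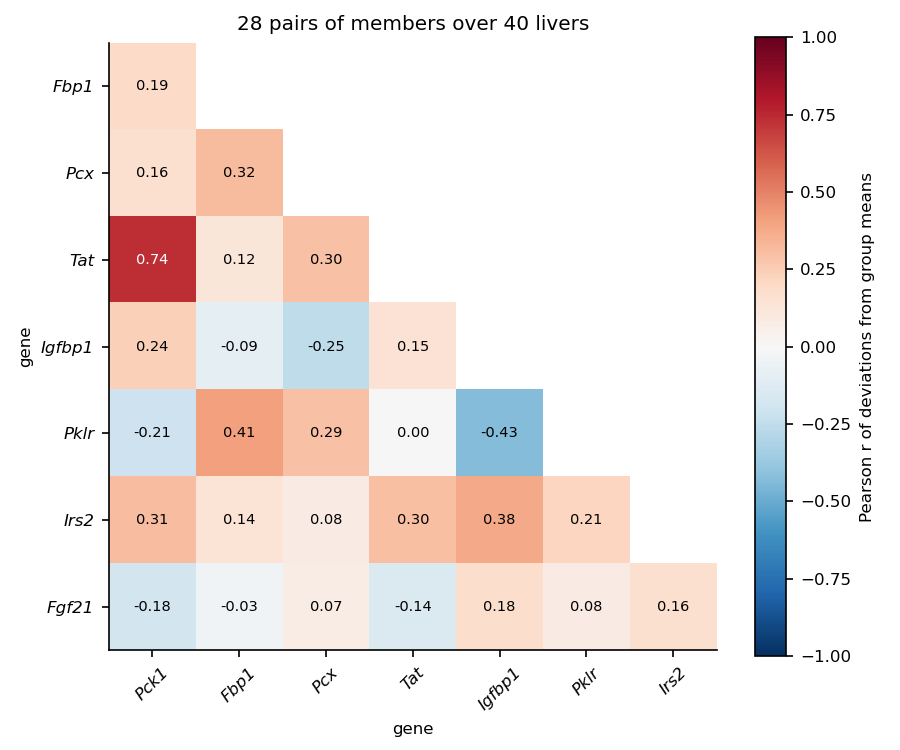
Pearson r of deviations from the group means over 40 livers for each of the 28 pairs of the 8 genes (both axes list genes), coloured from blue (-1) to red (1) with r printed in each cell. Pck1 with Tat, at 0.74, is the strongest cell, and Igfbp1 with Pklr, at -0.43, the most negative.

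The genes whose deviations were most like those of each member over the 40 livers are given as a description, without a test. For Pck1 they were Tat (0.741), Cdca3 (0.625) and Klf3 (0.609), so Tat ranked first of all genes. For Tat they were Klf3 (0.762), Shb (0.745) and Pck1. Igfbp1 was most like Ip6k2 (0.793), Gadd45b (0.736) and Irf2bp2 (0.691), and Fgf21 most like Usf2 (0.637), Nrf1 (0.615) and Rnf25 (0.594). Irs2 went with E2f4 (0.669), Sik1 (0.654) and Akap8l (0.617). The closest to Pklr were Kifbp (0.755), Rnf145 (0.737) and Aacs (0.730), to Fbp1 Lonp2 (0.818), Aldh7a1 (0.809) and Serpinf1 (0.791), and to Pcx Fn1 (0.877), Afdn (0.869) and Pbxip1 (0.868).

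Among the pathway lists, Pklr had its highest median r with the lipogenic genes that glucose drives. Its r with the 14 measured genes of that list had a median of 0.566 and exceeded 0.5 for 9 of them, where 5.27% of all genes did so and the median over all genes was 0.00. Fasn, the fatty acid synthase, was highest at 0.71 and Pnpla3, a lipid droplet protein, lowest at 0.263. These r are those of the representative Pklr probe set, and its other probe sets, brighter in liver, were not correlated with the lists. Pklr also had an r of -0.485 with the Actb 3′ minus 5′ difference, whose part in these r was not tested. Other lists stood above the level of all genes too. With Pklr the median r was 0.439 for gluconeogenesis and glucose release, where 4 of 12 genes exceeded 0.5. It was 0.427 for insulin signalling (5 of 19) and 0.278 for glycogen (5 of 13). Pcx had r above 0.5 with 9 of 19 insulin signalling genes and 8 of 21 genes of amino acid breakdown and the urea cycle, but also with 11.4% of all genes. Among 11 glucocorticoid response genes, r with Tat had a median of 0.205 and exceeded 0.5 for 1 of them, Tsc22d3 (0.666), against 0.187% of all genes. With Pck1 the same list had a median of 0.252 and 2 genes above 0.5, the highest Zbtb16 (0.585), against 0.236% of all genes. Of 21 genes of glucagon, cAMP and fasting transcription 1 exceeded 0.5 with Pck1, the transcription factor gene Cebpb (0.546, list median 0.108). Of 19 insulin signalling genes 1 did, Foxo1 (0.502), the transcription factor that insulin holds out of the nucleus, and 1 lay below -0.5, Rheb (-0.587), a GTPase that activates mTORC1, with a list median of 0.0481. Below -0.5 with Pck1 were 3.37% of all genes. Igfbp1 had r above 0.5 with 2 of the 21 glucagon and cAMP genes, the highest Cebpb (0.664), and below -0.5 with 1, Ppargc1a (-0.584), the coactivator of gluconeogenic genes. That list had a median of -0.196, and over all genes 1.37% were above 0.5 and 4.2% below -0.5. Of the 14 lipogenic genes 2 lay below -0.5 with Igfbp1, the lowest Srebf1 (-0.613), the lipogenic transcription factor that insulin induces, with a list median of -0.295. The relation was not particular to that list. Of 12 genes of gluconeogenesis and glucose release 3 lay below -0.5 with Igfbp1, the lowest Tpi1 (-0.637), with a median of -0.348. Of 15 clock genes 3 did, the lowest Cry2 (-0.574), with a median of -0.231. All of these points share the same 40 arrays.

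Of all genes limma called 0.022% and 0.115% under troglitazone on days 15 and 29, and 0% and 0.0055% under Elmiron, and the counts of the pathway lists stand beside these shares. Of 12 measured genes of gluconeogenesis and glucose release, 17 of glycolysis and fructolysis, 19 of insulin signalling, 21 of glucagon and cAMP signalling and fasting transcription, 21 of amino acid breakdown and the urea cycle, 13 of glycogen, 14 lipogenic genes driven by glucose and 11 of the IGF axis, 0 were called by limma in any of the 4 liver comparisons. Of 17 genes of ketone production and other PPARalpha fasting targets, 1 rose under troglitazone on day 29. It was Vnn1, a pantetheinase and known PPARalpha target, which rose by 1.29 ± 0.23 (SE, limma adjusted p 0.0219). None of the 11 glucocorticoid response genes, 15 clock genes and 15 genes of the integrated stress response was called either.

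List medians are given beside the median of all genes, which lay between -0.01 and 0.01 in the 4 comparisons. The lipogenic list had a median of 0.23 under troglitazone on day 15 and 0.21 on day 29, with 12 of 14 genes above 0 each time, against -0.03 and 0.01 under Elmiron. Insulin signalling genes had a median of -0.11 under troglitazone on day 29, with 4 of 19 above 0. The ketone list had -0.14 in the same comparison and -0.12 under Elmiron on day 29. Glucocorticoid response genes had 0.36 and 0.28 under Elmiron on days 15 and 29, with 11 of 11 above 0 on both days, and 0.20 and -0.04 under troglitazone. Genes of glucagon, cAMP and fasting transcription had 0.06 and 0.10 under Elmiron and -0.05 and -0.09 under troglitazone.

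Markers of other cells also differed between groups. The 13 Kupffer cell and macrophage genes had medians of 0.29 and 0.49 under troglitazone and 0.53 and 0.05 under Elmiron on days 15 and 29, with 13 of 13 above 0 in the first 3 comparisons and 0 called. Their mean level was 9.48 to 10.13 in Elmiron livers and 8.97 to 9.53 in vehicle livers on day 15. Under troglitazone it was 9.01 to 10.17 against 8.74 to 9.42 on day 15 and 9.03 to 10.23 against 8.54 to 9.30 on day 29. The part of these markers in the members' values was not tested.

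In the fat of the same study and of the fenretinide study the members separated into liver genes and shared genes. Fbp1 averaged 14.13 in liver, 6.85 in brown fat and 7.10 in white fat, Tat 13.20, 6.70 and 6.79, and Igfbp1 12.10, 5.40 and 6.33. Pck1, which in fat feeds glycerol synthesis, averaged 13.20 in liver, 13.68 in brown fat and 13.71 in white fat. Pcx averaged 12.42, 13.28 and 13.77, and Irs2 7.27, 7.37 and 7.64. Fgf21 averaged 8.07, 6.90 and 6.36. Pklr averaged 9.96, 8.43 and 8.17 by its representative probe set, and its other 2 probe sets showed a wider gap between liver and fat, with 10.28, 7.26 and 7.18 for one and 10.27, 6.97 and 6.71 for the other.

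Single fat arrays held the liver genes at levels far above the rest. In brown fat, vehicle mouse 82 on day 29 had Fbp1 at 10.94, Tat at 9.61 and Igfbp1 at 8.62, and a hepatocyte list mean of 12.59 with Alb at 14.61, against list means of 6.92 to 7.28 in the other 4 of its group. White fat mice with high hepatocyte list means on day 29 were vehicle mouse 86 (10.99) and fenretinide mice 95 (12.18) and 93 (10.15), with Tat at 8.27, 9.55 and 7.19. Fenretinide mice 57 and 58 on day 15 had Fbp1 at 10.22 and 10.04 and Igfbp1 at 8.46 and 9.02, but Tat at 6.29 and 6.20 and list means of 7.19 and 8.60. The third, mouse 59, had Fbp1 at 5.42 and Igfbp1 at 5.16. The part of the hepatocyte markers in these values was not tested.

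**Figure D5:**
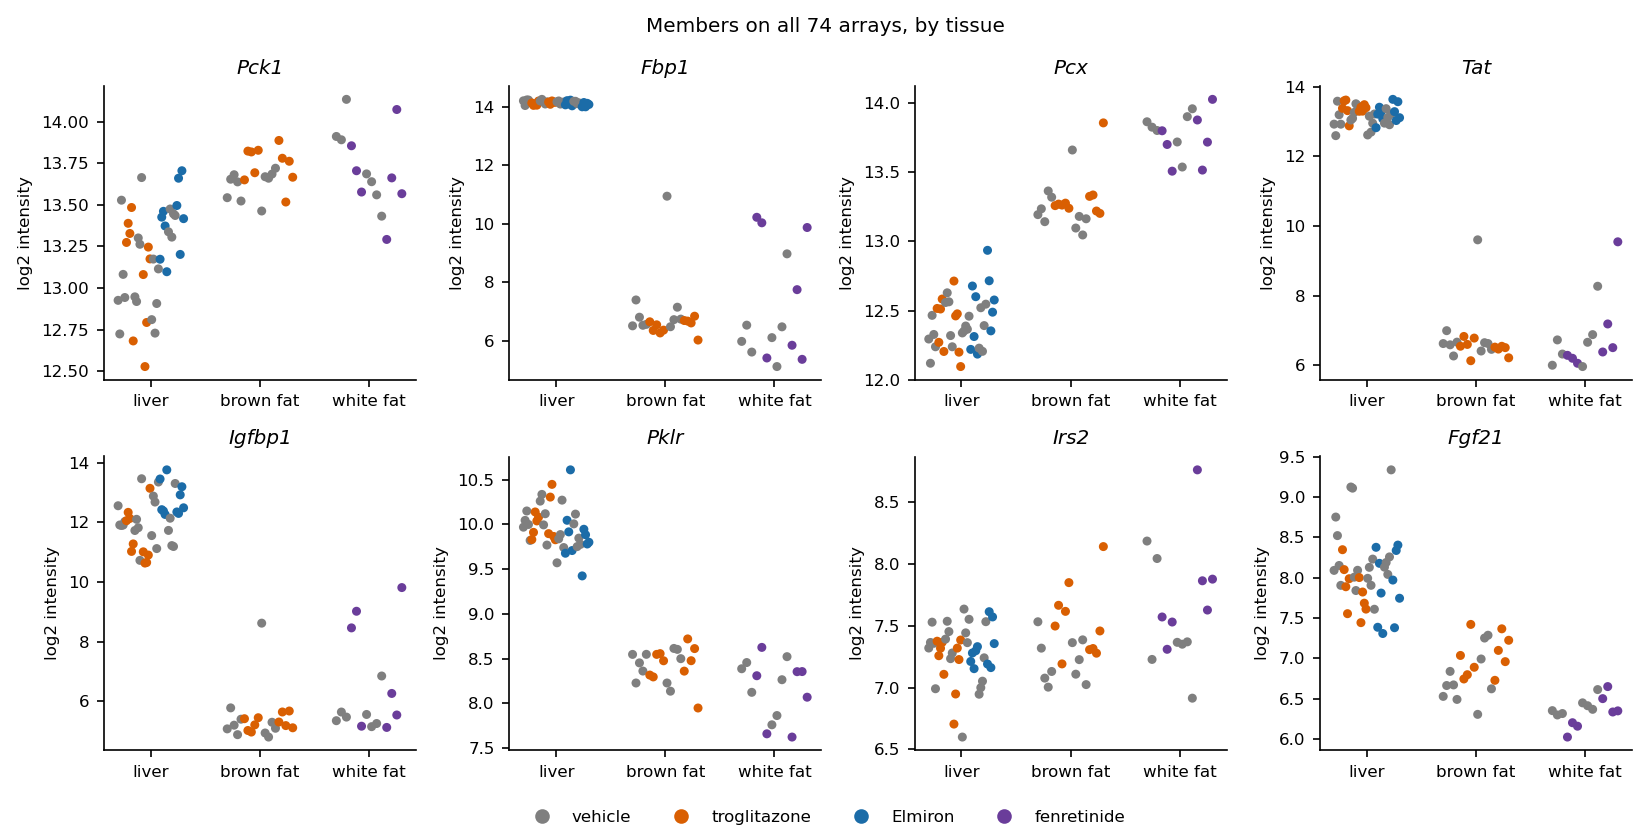
Log2 intensity of each of the 8 genes (y axis, a scale of its own in every panel) on all 74 arrays, 1 point per array, in liver, brown fat and white fat (x axis). Fbp1, Tat and Igfbp1 are high in all livers and in a few fat arrays, including brown fat of vehicle mouse 82 (Fbp1 10.94), while Pck1, Pcx and Irs2 reach their highest values in fat.

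In brown fat limma called 0 of 8 members under troglitazone on day 15 against 0.0605% of all genes (11 genes), and 0 of 8 on day 29 against 0.055% (10 genes). At an unadjusted p below 0.05 there were 682 genes and 1 member on day 15, and 1093 genes and 0 members on day 29. The member was Irs2, 0.35 higher (SE 0.16, adjusted p 1). The groups of no member were free of overlap, where 3.25% of all genes had such groups on day 15 and 0.759% on day 29. Fgf21 in brown fat was 6.53, 6.66, 6.84, 6.67 and 6.49 in vehicle and 7.04, 6.75, 6.80, 7.42 and 6.89 in troglitazone mice on day 15, a difference of 0.34 (SE 0.17, adjusted p 1).

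The troglitazone effect in liver was set against that in brown fat of the same study, in which 15 mice gave both tissues. On day 15, 0 of 8 members were called against 0.022% of all genes (4 genes), and on day 29 0 of 8 against 0.0165% (3 genes). At an unadjusted p below 0.05 there were 581 genes and 1 member (Fgf21), and 982 genes and 2 members (Fgf21 and Irs2). The Fgf21 effects differed by -0.65 on day 15 (SE 0.30, adjusted p 1) and by -0.91 on day 29 (SE 0.30, 95% interval -1.51 to -0.30, adjusted p 0.687), being below 0 in liver and above 0 in brown fat on both days. The Irs2 effects differed by -0.38 and -0.54 (SE 0.20 each, adjusted p 1 and 0.733).

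In white fat limma called 0 of 8 members under fenretinide on day 15 against 3.95% of all genes (719 genes), and 0 of 8 on day 29 against 1.34% (244 genes). At an unadjusted p below 0.05 there were 3583 genes and 0 members on day 15, and 2701 genes and 1 member on day 29. The day 15 groups of 3 did not overlap for Pck1, Pcx and Fgf21, where 27.9% of all genes had such groups, and the day 29 groups of 4 did not overlap for Irs2, where 8.75% did. Irs2 on day 29 was 7.37, 7.35, 7.37 and 6.91 in vehicle and 8.76, 7.86, 7.63 and 7.88 in fenretinide mice. All 4 treated mice were above all vehicle mice, and the difference was 0.78 (SE 0.24, 95% interval 0.25 to 1.31, adjusted p 0.141). The lowest value, 6.91, was that of vehicle mouse 86. That array and those of fenretinide mice 93 and 95 had the high hepatocyte list means given above, whose part in Irs2 was not tested. Fbp1 and Igfbp1 differed by 2.51 (SE 1.36) and 2.06 (SE 1.12) on day 15 (adjusted p 0.335 and 0.336), with mice 57 and 58 high in both genes.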

How the data were processed

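Total RNA of liver, brown fat and white fat was extracted with Trizol, labelled with biotin and hybridised to Affymetrix arrays, per the labels' protocols, with 1 array per mouse and tissue. The deposited table holds linear intensity values of 45101 probe sets on 74 arrays, from 7.44 to 39426, which the authors made with RMA per the submitters' processing notes. RMA corrects background, normalizes across arrays and summarises probes, but the sources used here give neither its version, nor which arrays it ran on jointly, nor scan dates or batches.

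Intensities were put on the log2 scale. Of the probe sets, 34945 had 1 gene symbol, 932 several and 9160 none in the platform annotation (64 others were controls), and symbols and positions came from it and from RefSeq tables. Each of 18193 genes was represented by its probe set of highest mean over all arrays. Groups were fitted with limma 3.58.1 (lmFit and eBayes, R 4.3.3), with the 4 groups of a tissue and study in 1 fit, and all 40 livers or all 40 troglitazone study arrays where studies or tissues were compared. Benjamini-Hochberg adjustment ran over all genes, and an adjusted p below 0.05 was called, with no fold threshold. The number of arrays limits the precision.

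In the troglitazone study a number shared by a brown fat and a liver array marks 1 mouse by the labels, and 15 mice gave both tissues. Their deviations from the group means correlated by -0.135 to 0.151 over all genes, with 1 mouse over 0.1. Vehicle and treated mice are different animals, so no other comparison is paired.

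Correlations between members used deviations from group means over 40 livers, with mice permuted within groups 100000 times. The text names all 8 members, up to 3 called genes of each pathway list per liver comparison, and the 3 genes most like each member. Members and lists were chosen with earlier results of these data known. The fits were also run on simulated data, whose outcome is not given here. That noise was drawn independently for each gene and array, so it does not cover effects shared by the genes of an array. Computation also used Python 3.11.15, pandas 2.3.3, numpy 2.4.6, scipy 1.17.1 and matplotlib 3.10.9.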

Additional observations from a re-analysis of the deposited data

Results flagged for a closer look

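Each group of 4 or 5 arrays was checked for 1 array far from the others, by the gap to its nearest neighbour relative to the range of the group. Of 112 checks, 1 per group and gene over the 8 genes, 15 found such an array. Chance alone would flag about 1 in 20 independent checks. These checks are not independent, since the genes of a group share the same arrays. Some brown fat arrays were flagged for several genes, so the count of 15 does not show an excess over that rate.

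In liver 5 arrays stood apart. Pck1 was 12.68 in troglitazone mouse 56 on day 15, below the 13.27 to 13.48 of the other 4, and its Tat was also the lowest of the group. Igfbp1 was 12.55 in the troglitazone study's vehicle mouse 42 on day 15 (others 11.89 to 12.02), and 13.14 in troglitazone mouse 96 on day 29 (others 10.63 to 11.01). Irs2 was 6.60 in the Elmiron study's vehicle mouse 41 on day 15 (others 7.36 to 7.63). Fgf21 was 9.34 in the Elmiron study's vehicle mouse 85 on day 29 (others 8.04 to 8.26), and the same mouse had the highest Igfbp1 of its group, 13.30.

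Brown fat of vehicle mouse 82 on day 29 stood apart in 5 genes. Fbp1 was 10.94 (others 6.49 to 7.16), Tat 9.61 (6.41 to 6.65), Igfbp1 8.62 (4.80 to 5.30), Pcx 13.66 (13.05 to 13.18) and Pck1 13.46 (13.66 to 13.72), beside an Alb level of 14.61. Brown fat of troglitazone mouse 95 on day 29 stood apart in 4 genes, with Fbp1 at 6.04 (others 6.62 to 6.85), Tat at 6.22 (6.47 to 6.55), Pcx at 13.86 (13.20 to 13.34) and Irs2 at 8.14 (7.28 to 7.46). In white fat Irs2 was 6.91 in vehicle mouse 86 on day 29 (others 7.35 to 7.37), an array with a hepatocyte list mean of 10.99. These values were not weighed further, and the cause was not tested.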

How the results depend on the processing

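The members' changes in the 4 liver comparisons were taken again under other settings. These were filters, normalization, probe set choice, weights, fold threshold, pairs of groups alone and the other study's vehicle livers. The filter, all probe sets tested, trended and robust eBayes, the fold threshold and pairs of groups alone leave the size of a change as it was. No sign could turn under them, and the fold threshold could add no call. Probe set choice could move the size only for Pck1 and Pklr, which have several probe sets. Of 348 values in all, 337 kept their direction and their side of the threshold, 10 turned sign and 1 passed the threshold. That 1 was Fgf21 under troglitazone on day 29 with array weights (-0.948, adjusted p 0.0415), which made the count of members called 1 in that comparison. In white fat on day 15 the count became 1 with median centring (Fgf21) and 1 with array weights (Fbp1). Sign turns in Elmiron livers on day 15 were Pcx at -0.0031 with quantile normalization and -0.0028 with array weights. Pklr under troglitazone on day 15 became -0.021 as the mean of its probe sets and -0.0089 with its brightest liver probe set. With the other study's vehicle livers the values were 0.0022 (Fgf21, troglitazone day 15), 0.013, 0.011 and 0.17 (Fbp1, Pcx and Pklr, troglitazone day 29), -0.0053 (Pklr, Elmiron day 15) and -0.00045 (Irs2, Elmiron day 29). The cause of these turns was not tested. Leaving out 1 array at a time gave 640 values, of which 18 turned sign and 0 were newly called. The members called stayed at 0 in all 18 comparisons. An array of the other day does not enter a difference, so leaving it out could not turn that sign. The turns were in Pklr (-0.041 to 0.046) and Irs2 (-0.108 to 0.026) under troglitazone on day 15, in Pcx (-0.153 to 0.0011) and Pklr (-0.122 to 0.033) under troglitazone on day 29, and in Fbp1 (-0.048 to 0.00034), Pcx (-0.051 to 0.072), Pklr (-0.025 to 0.232) and Irs2 (-0.243 to 0.015) under Elmiron on day 15. With the mouse as a replicate block (consensus correlation -0.0448), liver against brown fat gave 0 members called on both days. The r of Pck1 with Tat lay between 0.690 and 0.801 with 1 liver left out at a time, and quantile normalization gave 0.756. Counts over all genes moved more: troglitazone livers on day 29 had 21 called genes, 4 with the 2 groups alone, 436 with array weights, and 7 to 50 with 1 array left out (most without vehicle mouse 87). On day 15 the 4 became 3 to 19. With the other study's vehicles Elmiron had 5 and 42 called genes in place of 0 and 1. The difference between compounds on day 29 had 11 to 912 in place of 17, vehicle livers between studies on day 29 up to 574 in place of 0 (56 without vehicle mouse 88), brown fat 7 to 321 and 0 to 170 in place of 11 and 10 (43 and 74 without vehicle mouse 82), white fat 350 to 2308 and 46 to 404 in place of 719 and 244 (339 to 1023 and 51 to 319 with 1 array left out, most without fenretinide mouse 59 of day 15), and liver against brown fat on day 29 2 to 124 in place of 3. On day 15 that last comparison had 3 with the mouse as a block and 10 without brown fat mouse 82 in place of 4, and most with array weights. With 5 livers a group, the 95% intervals of Igfbp1 span more than a log2 unit. That width is not a detection limit, since calls used the adjusted p over all genes. Fgf21 under troglitazone on day 29 was not called at -0.72 (SE 0.22). Igfbp1 had SEs of 0.42 and 0.43 in the 2 studies, so larger changes of that gene could also go uncalled.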
